A study of Mus musculus with 20 samples.

Results

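Genes of mucosal and glandular epithelium were followed through tumors and tumor cells with and without cathepsin D (CTSD), an aspartic protease of the lysosome. They encode secreted proteins that coat, trap or disarm microbes, membrane mucins and factors of secretory cells. The 10 genes were Agr2, Spdef, Muc1, Muc4, Pigr, Ltf, Lcn2, Slpi, Wfdc2 and Scgb2b26, of 45706 genes counted. They were chosen by name from results on the same samples, so their levels and differences are given as descriptions, without p-values, and tests are given only for Ctsd and for other genes of the same processes.

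The tumors were taken at 18 weeks of age from PyMT mice on a C57BL/6N background, in which the MMTV promoter drives the polyoma virus middle T oncogene in mammary epithelium, so both genotypes carried this oncogene. In the 4 MMTV-cre;Ctsd-/- mice, cre under the same promoter had deleted floxed Ctsd in the mammary epithelium, whereas stromal cells kept the gene. The 4 control mice are given as wild type (WT) in the labels. The paper counts as controls all CTSD-competent mice, with untargeted or floxed Ctsd alleles. Its controls of the same age for exome sequencing were Ctsd fl/fl. The alleles of these 4 mice, and whether any carried cre, are not given in the sources used here. The cells were spontaneously immortalized tumor cells of 1 Ctsd+/+ mouse and 1 MMTV-cre;Ctsd-/- mouse, kept in a mild starvation medium with 1% fetal calf serum. Cells starved for 10 days are called 1% FCS and those starved long term, for 12 weeks, 1% FCS LT. There were 4 such groups of 3 replicates. Each genotype of cells is thus represented by a single line, and the spread between its replicates is not a spread between mice. RNA was sequenced and counted per gene, and levels are given as CPM, the counts of a gene scaled to the size of its library. Tumors and cells were scaled separately, so levels across the 2 materials are set side by side without a test.

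Goblet-like and glandular cells load such proteins into the secretory pathway. AGR2 is a disulfide isomerase of the endoplasmic reticulum that helps mucins to fold, and SPDEF is a transcription factor of secretory cell maturation. MUC1 and MUC4 are mucins anchored in the apical membrane, and PIGR carries polymeric IgA and IgM through the epithelium into secretions. Lactoferrin (LTF) binds iron, lipocalin-2 (LCN2) binds the siderophores by which bacteria take up iron, and both are also stored in neutrophil granules. SLPI and WFDC2 are small proteins with whey acidic protein (WAP) domains, of which SLPI inhibits serine proteases, and SCGB2B26 belongs to the secretoglobins, small secreted proteins of glands. The mammary gland makes several of these proteins for milk.

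On GRCm38, Agr2 (ENSMUSG00000020581) lies at chr12:35992907-36004087 on the plus strand and Scgb2b26 (ENSMUSG00000066586) at chr7:33943002-33945040 on the minus strand. Ltf (ENSMUSG00000032496) lies at chr9:111019271-111042767 (plus) and Lcn2 (ENSMUSG00000026822) at chr2:32384633-32388252 (minus). The WAP genes Slpi (ENSMUSG00000017002, chr2:164354070-164389095, minus) and Wfdc2 (ENSMUSG00000017723, chr2:164562413-164568510, plus) are both on chromosome 2. The remaining genes are Spdef (ENSMUSG00000024215, chr17:27714352-27728955, minus), Muc1 (ENSMUSG00000042784, chr3:89229057-89233381, plus), Muc4 (ENSMUSG00000079620, chr16:32735886-32782391, plus) and Pigr (ENSMUSG00000026417, chr1:130826684-130852249, plus).

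Promoter sequences are shown for 4 genes, because Agr2 and Scgb2b26 had the largest differences of the 10 between tumor genotypes and Lcn2 and Ltf differed in opposite directions between the genotypes of long-term starved cells. They cover 250 bases before to 50 bases after the annotated start in RefSeq, on GRCm38.p6, and are written in the direction of the gene. Capitals mark the letters TTGCNNAA on either strand, a core motif of C/EBP factors, which are known inducers of acute phase genes.
Agr2, chr12:35992675-35992974, plus strand: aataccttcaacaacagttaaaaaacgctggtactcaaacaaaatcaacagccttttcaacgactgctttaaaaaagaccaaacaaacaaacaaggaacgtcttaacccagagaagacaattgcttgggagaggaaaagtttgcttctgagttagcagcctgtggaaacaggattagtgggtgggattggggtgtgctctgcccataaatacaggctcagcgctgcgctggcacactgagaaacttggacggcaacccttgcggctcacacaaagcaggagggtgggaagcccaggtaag
Scgb2b26, chr7:33944936-33945235, minus strand: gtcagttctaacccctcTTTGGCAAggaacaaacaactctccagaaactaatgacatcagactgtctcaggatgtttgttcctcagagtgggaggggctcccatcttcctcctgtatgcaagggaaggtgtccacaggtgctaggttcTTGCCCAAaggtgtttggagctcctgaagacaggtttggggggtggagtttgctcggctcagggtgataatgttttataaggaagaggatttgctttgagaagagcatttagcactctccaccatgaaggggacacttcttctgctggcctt
Lcn2, chr2:32387690-32387989, minus strand: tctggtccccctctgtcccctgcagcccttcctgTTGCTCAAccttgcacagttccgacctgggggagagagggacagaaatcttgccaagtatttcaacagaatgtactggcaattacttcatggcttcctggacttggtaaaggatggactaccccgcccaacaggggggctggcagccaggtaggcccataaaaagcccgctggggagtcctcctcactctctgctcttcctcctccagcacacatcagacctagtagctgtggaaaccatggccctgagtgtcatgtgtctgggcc
Ltf, chr9:111019042-111019341, plus strand: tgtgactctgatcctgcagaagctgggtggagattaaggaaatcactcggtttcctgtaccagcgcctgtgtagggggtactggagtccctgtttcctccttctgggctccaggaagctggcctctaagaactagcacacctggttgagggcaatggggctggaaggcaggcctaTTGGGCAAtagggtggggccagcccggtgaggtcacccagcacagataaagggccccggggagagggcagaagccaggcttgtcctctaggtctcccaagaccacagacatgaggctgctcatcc
RefSeq held promoters for 10 of the 10 genes, 11 promoters in all. The C/EBP letters occurred in the promoters of Lcn2 (216 bases before the start), Slpi (241 bases before), Ltf (75 bases before) and Scgb2b26 (233 and 102 bases before), against 10.8% of 32851 promoters of this length. The letters TTCNNNGAA, the core of STAT motifs, stood in the Pigr promoter at 39 bases past the start and are held by 8.30% of all promoters. Neither GGGANNTTCC (NF-kB, in 1.47% of promoters) nor CCGGAT (SPDEF, in 6.04%) was found in a promoter of the 10 genes. All motifs were read on both strands, and the motifs found did not overlap each other. Such matches describe letters, not bound sites.

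Counts per sample on genes ranged from 49725437 to 64291587 in tumors and from 33622831 to 40239762 in cells. Control tumor replicate 4 had the lowest count of the tumors and a TMM scaling factor of 0.793, against 0.988 to 1.06 in the others. Of its reads, 15.6% lay on more than 1 gene, the highest share, followed by control replicate 3 at 12.4%. Control replicate 4 had the most Agr2, Spdef, Wfdc2 and Scgb2b26 of all tumors and the least Muc1, Muc4 and Pigr. In tumors, Ctsd was measured at 1859, 2616, 1780 and 2531 CPM in controls and at 797, 360.0, 1294 and 1232 CPM in MMTV-cre;Ctsd-/- mice. Every knockout tumor lay below every control, with a log2 fold change (log2 FC) of -1.25 ± 0.38 (SE), at an adjusted p of 0.463 in edgeR. In cells Ctsd differed by -4.16 ± 0.37 in 1% FCS (edgeR, adjusted p = 4.34e-06) and by -3.74 ± 0.36 in 1% FCS LT (edgeR, adjusted p = 1.24e-05). The LR number in each sample's label, whose meaning the labels do not give, split the tumors exactly as the genotype did, so LR number and genotype cannot be told apart in tumors. In cells, 1% FCS replicate 1 and 1% FCS LT replicate 3 of both genotypes had LR numbers of their own, and the other 8 samples shared 1.

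Luminal epithelial markers were high in both groups of tumors, at a summed 6109 to 10213 CPM of 10 genes in controls and 5912 to 7383 CPM in knockouts, and milk protein genes summed to 8882 to 27633 CPM. Adipocyte markers moved with genotype, at 562 to 5742 CPM in controls and 3551 to 24611 CPM in knockouts, and 10 of 10 of them were called higher. Salivary gland markers summed to 8.96 to 49.4 CPM in controls and 33.2 to 214 CPM in knockouts. Only 1 of 6 tested genes, Amy1, was called higher, and the median log2 FC of the 6 was -0.02. Neutrophil markers were low, at 3.51 to 10.5 CPM in controls and 4.78 to 7.84 CPM in knockouts, with Ctsg at 0 in all knockouts, and none of 5 tested was called. Macrophage markers reached 1011 to 1927 CPM in controls and 841 to 1489 CPM in knockouts. In bulk tumors, fewer cells of a type and less RNA per cell cannot be told apart. The part of these cell types in the results was not tested beyond the covariates named. Adipocyte markers themselves differed with genotype, at a median log2 FC of 2.79. In 8 tumors, values with this covariate therefore cannot fully separate adipocyte markers from genotype, and a call gained, lost or turned with it decides neither.

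In tumors, a gene was called at an unadjusted p of 0.1, the threshold the study used. By this rule 8.44% of 18617 tested genes were called higher in the knockout tumors and 8.27% lower, and at an adjusted p of 0.05 only 0.00537%, that is 1 gene, the coat color gene agouti (higher in knockouts, and named after its values were seen), was called. All 10 genes were tested, 1 of them (Pigr) was called higher and 3 (Agr2, Spdef and Scgb2b26) lower. The others, Muc1, Muc4, Ltf, Lcn2, Slpi and Wfdc2, were not called. Agr2 and Scgb2b26 were also below every control in every knockout tumor, which held for 1.89% of all tested genes.

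Agr2 was at 1.79, 32.5, 10.5 and 33.5 CPM in control tumors. In MMTV-cre;Ctsd-/- tumors it was at 0.455, 0.999, 0.225 and 0.713 CPM, from 15 to 65 counts. Every knockout was below the lowest control, which was itself far below the other 3. The log2 FC was -5.03 ± 0.87, and it stayed between -5.41 and -4.65 when 1 tumor was left out. Spdef, a factor of the secretory lineage, went from 36.6, 28.9, 38.1 and 41.0 CPM in controls to 33.8, 31.7, 19.3 and 14.0 CPM in knockouts. Knockout replicates 1 and 2 lay within the range of the controls, and 3 and 4 below it. Its log2 FC of -0.55 ± 0.29 lost the call without control replicate 1 (-0.54), 3 (-0.52) or 4 (-0.48) and without knockout replicate 3 (-0.45) or 4 (-0.35). With the adipocyte markers as a covariate it was 0.049.

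**Figure D1:**
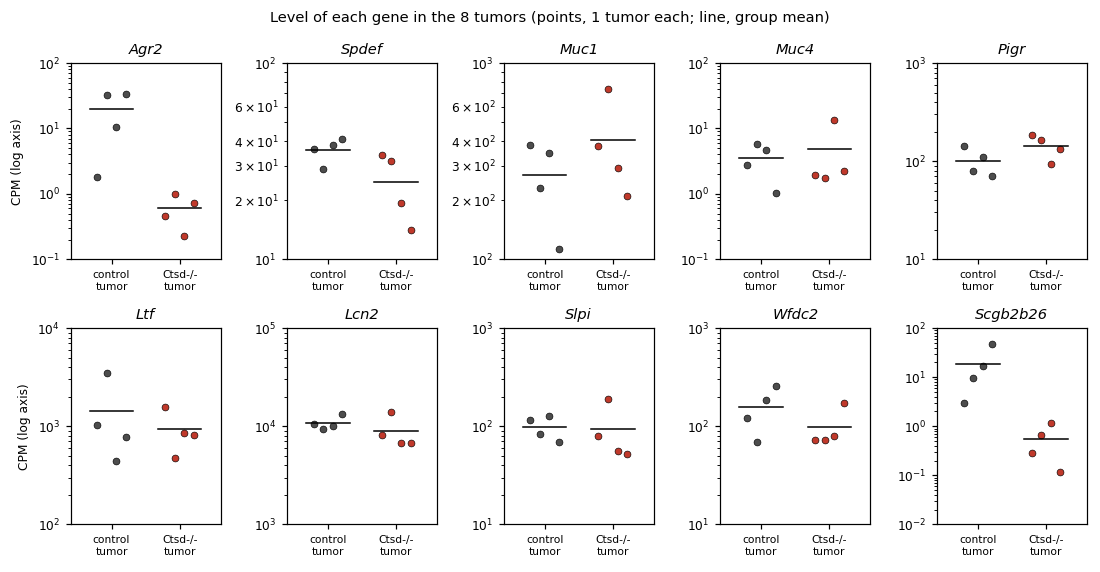
Each panel plots the level of 1 gene (CPM, log axis) in 4 control and 4 MMTV-cre;Ctsd-/- tumors, with a line at the group mean. The points of Agr2 and Scgb2b26 are apart between the groups, whereas those of the other 8 genes overlap.

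The membrane mucins were spread widely within each genotype. Muc1 was at 384, 231, 347 and 113 CPM in controls and at 378, 741, 290 and 211 CPM in knockouts. The groups overlapped, at a log2 FC of 0.59 ± 0.45, which was 0.12 without knockout replicate 2 and 1.93 and called with the adipocyte covariate. Muc4 was scarce, at 2.79, 5.74, 4.74 and 1.04 CPM in controls and 1.93, 1.74, 13.6 and 2.21 CPM in knockouts. Only knockout replicate 3 stood above the controls, and without it the log2 FC turned from 0.44 ± 0.74 to -0.87, as it did with the adipocyte covariate (-0.47). Muc4 shares 5.33% of its exon bases with Muc20 on the opposite strand, and reads of the overlap cannot be assigned without strand.

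Pigr, the transporter of polymeric immunoglobulins, was at 141, 78.9, 111 and 70.4 CPM in controls. In knockouts it was at 185, 164, 93.5 and 133 CPM. The groups overlapped through knockout replicates 3 and 4, and the log2 FC was 0.52 ± 0.28. The call was lost when 1 of 6 tumors was left out: control replicates 2 (0.42), 3 (0.57) and 4 (0.39), and knockout replicates 1 (0.38), 2 (0.45) and 4 (0.56). It was also lost with the luminal markers as a covariate (0.26) and in DESeq2 (0.51), and with the adipocyte covariate it was kept at 1.20. Markers of B and plasma cells, the source of the IgA that PIGR carries, summed to 43.0 to 62.3 CPM in controls and 62.7 to 71.6 CPM in knockouts. Of 8 tested markers 2 were called higher and 0 lower, at a median log2 FC of 0.19. One of them, Jchain, the joining chain PIGR binds, was called higher with overlapping groups at 0.74 ± 0.38 (edgeR, adjusted p = 0.582).

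Lcn2 and Ltf encode the iron-withholding proteins. Lcn2 was at 10635, 9426, 10069 and 13282 CPM in controls and 8061, 13970, 6734 and 6805 CPM in knockouts. That is 0.685% to 1.46% of all counts on genes. In knockouts, 3 of 4 tumors lay below the lowest control and replicate 2 above the highest, at a log2 FC of -0.29 ± 0.31, which was -0.59 and called without that replicate and 0.065 with the adipocyte covariate. Ltf was at 1038, 3476, 445 and 774 CPM in controls and 1565, 478, 846 and 820 CPM in knockouts. Control replicate 2 was the highest of the 8 tumors and the groups overlapped. The log2 FC was -0.63 ± 0.60, 0.30 without that tumor, -0.05 with the luminal covariate and -1.40 with the adipocyte covariate. Neutrophil (10.5 CPM), macrophage (1927 CPM) and fibroblast (3836 CPM) markers were also highest in this tumor, and their part in its Ltf level was not tested.

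Of the WAP proteins, Slpi was at 116, 82.5, 129 and 69.9 CPM in controls and 79.3, 188, 55.4 and 52.6 CPM in knockouts. The groups overlapped, at -0.08 ± 0.41, and without knockout replicate 2, the highest tumor for Slpi as for Lcn2 and Muc1, the value was -0.67 and called. With the adipocyte covariate Slpi was called in the other direction, at 1.04. Wfdc2 was at 121, 68.8, 184 and 256 CPM in controls and 73.2, 72.9, 79.0 and 171 CPM in knockouts. Knockout replicates 1 to 3 lay close together and replicate 4 apart from them, and the groups overlapped. Its log2 FC of -0.67 ± 0.42 was not called, but was without control replicate 2 (-0.91) or knockout replicate 4 (-1.07), with the adipocyte covariate (-1.29) and without a filter on low counts (-0.64).

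Scgb2b26 was at 2.95, 9.83, 16.5 and 46.8 CPM in controls. In knockouts it was at 0.288, 0.661, 1.17 and 0.116 CPM, from 7 to 78 counts. All knockouts lay below all controls, while the controls themselves spread from 196 to 1847 counts. The log2 FC was -5.08 ± 0.94, at -4.13 without control replicate 4 and -5.73 without knockout replicate 3. Secretoglobin genes are close copies of each other, and reads that fit several copies were not counted, so the level of a single copy is uncertain. Its relatives Scgb2b24 and Scgb2b27 were called lower too, with all knockouts below all controls, at -5.30 ± 1.12 and -2.56 ± 0.63 (edgeR, adjusted p = 0.292 and 0.381). Scgb2b27 was at 545 ± 514 CPM in controls and 92.6 ± 44.5 CPM in knockouts (SD, n = 4).

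Across the 8 tumors, log2 CPM of Agr2 and Scgb2b26 correlated at a Pearson r of 0.87, Spdef and Lcn2 at 0.76, Muc1 and Pigr at 0.76, Muc1 and Slpi at 0.73, and Lcn2 and Slpi at 0.73, whereas Pigr and Scgb2b26 were at -0.75. These values describe 8 tumors of 2 genotypes, whose difference enters each r. Among 12815 tested genes with an average log2 CPM above 1.3, the nearest to Agr2 was Far1 (r = 0.94) and the nearest to Scgb2b26 was Tra2b (0.96), with Far1 next (0.96). Spdef was nearest to Rgn (0.99), Muc1 to Naa40 (0.98), Muc4 to Cyth3 (0.96) and Pigr to Ctns (0.93). Ltf was nearest to Cyth4 and Lsp1, 2 genes of leukocytes (0.96 and 0.95), and then to Megf6 (0.93). Lcn2 was nearest to Mettl26 (0.96), Slpi to Zfp287 (0.97) and Wfdc2 to Mtmr9 (0.97). Each such r was picked as the highest of 12815 candidates over 8 tumors, so its size is no measure of a link between the genes.

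Other genes of the same processes were listed by function in 8 lists of 152 genes without the 10 described. In tumors 110 of them were tested, 7 were called higher (6.36%) and 15 lower (13.6%), where 8.44% of all tested genes were called higher and 8.27% lower. The median log2 FC was -0.10 against 0.00073 over all tested genes. Among other WAP proteins, 0 were called higher and 4 of 9 lower, with a list median of -0.88. They were Wfdc1 (-0.93), Wfdc12 (-1.38), Wfdc17 (-1.08) and Wfdc18 (-1.04). These 4 were named after their values were seen, not by the rule that asked for groups without overlap. Their calls rest on the unadjusted p alone. Wfdc18, a WAP gene of the mammary gland, was at 10870 ± 6398 CPM in controls and 5269 ± 2705 CPM in knockouts (SD, n = 4). Among other secretoglobins 3 of 4 were called lower and none higher, and among other secreted antimicrobial proteins 3 of 20 were called lower and 1 higher. Of these, the bactericidal lectin gene Reg3b was lower in all knockouts at -3.16 ± 0.85 (edgeR, adjusted p = 0.416), while Chil1, a chitinase-like protein, was at -1.07 ± 0.44 with overlapping groups.

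Mucin glycosylation and assembly genes were called in both directions, 3 higher and 3 lower of 17. B3gnt3, which extends O-glycans, was higher in all knockouts (0.68 ± 0.18, edgeR, adjusted p = 0.416), and Galnt3, which starts them, lower in all (-0.50 ± 0.19, adjusted p = 0.544). None of 5 other mucins was called. Of 16 secretory transcription factors 1 was called higher and 1 lower, of 22 cytokine and receptor genes that act on mucosal defense 1 was called higher (Il17rc, 0.37 ± 0.19) and 0 lower, and of 17 partners and receptors of the encoded proteins 1 was called in each direction. None of the 110 genes passed an adjusted p of 0.05 in edgeR. Without control replicate 4 the number called fell from 22 to 14.

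The 1% FCS Ctsd+/+ cells stood apart from all other cell groups in their markers: 10 luminal epithelial genes summed to 1102 to 2543 CPM, against 7834 to 16696 CPM in the other 9 samples. In the same 3 samples, 8 fibroblast genes summed to 1472 to 3628 CPM, against 3.24 to 104 CPM elsewhere, with Lum at 0. The part of this difference in the results that use these samples was not tested. Neutrophil markers summed to at most 1.71 CPM in any cell sample, with Retnlg, Ngp and Ctsg at 0 in every group. Milk protein genes summed to at most 65.8 CPM.

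**Figure D2:**
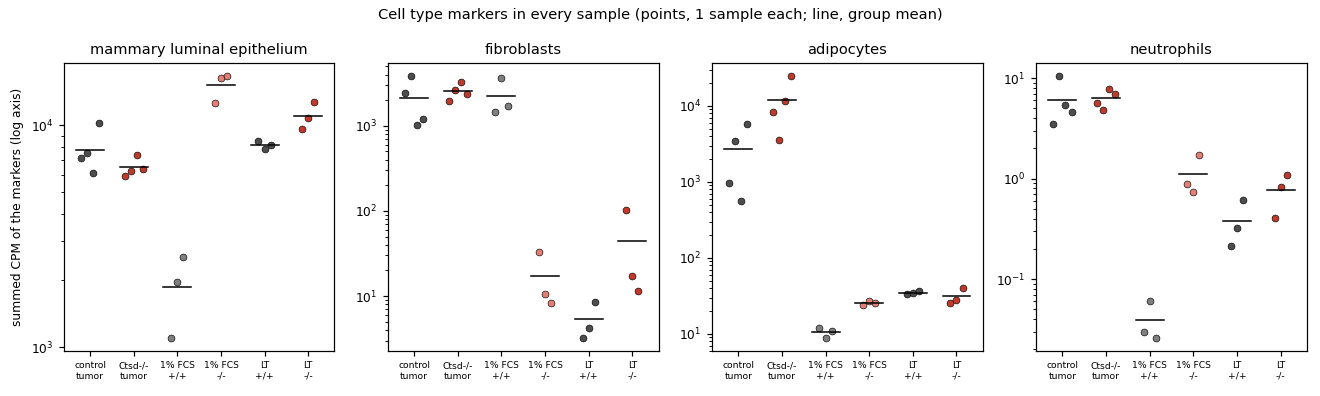
Each point is the summed CPM (log axis) of a marker list in 1 sample, by group, with a line at the mean. The 3 samples of 1% FCS Ctsd+/+ cells are lowest of the cells for luminal markers (at most 2543 CPM) and highest for fibroblast markers (at least 1472 CPM).

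Several of the 10 genes were at or near 0 in culture. Scgb2b26 had 0 counts in all 12 samples, and 3 counts, the limit that a count of 0 allows, correspond to at most 0.0772 to 0.0916 CPM in the 4 groups. Agr2 had 0 or 1 count except 6 and 3 in 1% FCS LT Ctsd+/+ replicates 2 and 3, and Spdef had 0 to 3 counts throughout. Pigr had 0 counts in the 1% FCS Ctsd+/+ cells, 21, 6 and 1 without CTSD, and after 12 weeks 0, 6 and 4 with CTSD and 10, 3 and 20 without. These 4 genes did not pass the filter on low counts, and 6 of the 10 were tested. Muc1 lay between 0.443 and 1.29 CPM in all cell samples, with overlapping groups, against 113 to 741 CPM in tumors. Muc4 lay between 0 and 0.629 CPM.

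Per kb of exon, a scale on which different genes can be compared, Lcn2 was the highest of the 10 in tumors, at 4138 ± 645 CPM per kb in controls and 3390 ± 1311 in knockouts (SD, n = 4). Ltf followed by its means, at 415 ± 401 and 269 ± 132 CPM per kb, with a spread that reached the levels of Wfdc2 and Muc1. Wfdc2, Muc1 and Slpi, at 138 ± 71.0, 115 ± 52.2 and 84.1 ± 23.4 CPM per kb in controls, lay within each other's spread. Below them were Scgb2b26 (32.9 ± 33.4), Pigr (24.9 ± 8.05), Spdef (15.7 ± 2.24) and Agr2 (15.2 ± 12.3), also within each other's spread, and Muc4 was lowest at 0.304 ± 0.178 CPM per kb. In cells the order was another one. Wfdc2 led in all 4 groups. After 10 days it was at 15.8 ± 7.56 CPM per kb with CTSD and 262 ± 40.1 without (SD, n = 3), and after 12 weeks at 85.0 ± 33.4 and 204 ± 48.1 CPM per kb. It was the only one of the 10 genes whose mean level in a cell group was as high as in tumors, and the mean of Lcn2 did not exceed 9.44 CPM per kb in a cell group.

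**Figure D3:**
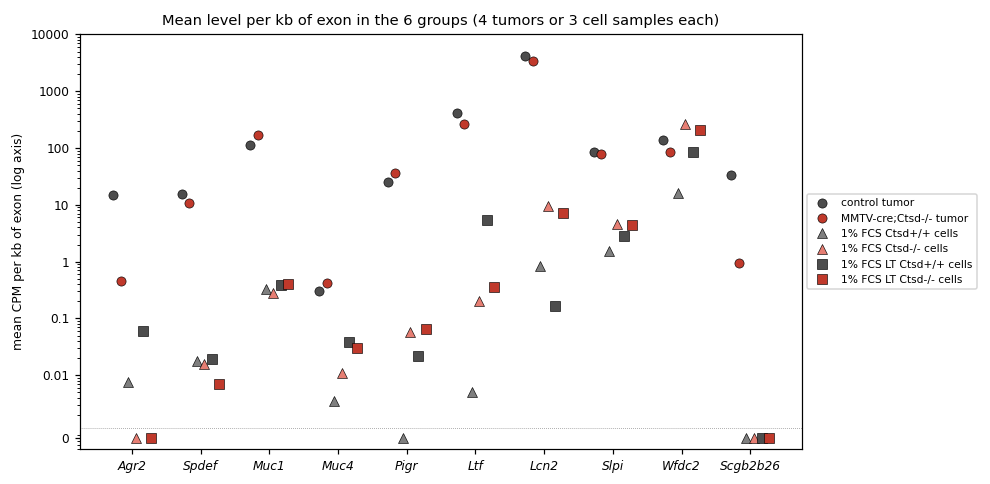
Mean level per kb of exon (CPM per kb, log axis, with 0 drawn at the foot) of each gene in the 6 groups, as circles for tumors, triangles for 1% FCS cells and squares for 1% FCS LT cells. All cell groups lie below the tumors for every gene but Wfdc2, which reaches 262 CPM per kb in 1% FCS Ctsd-/- cells.

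In cells the call asked for an adjusted p under 0.05 together with a log2 FC beyond 1 in either direction. After 10 days in 1% FCS, Ctsd-/- cells had more Wfdc2, Lcn2 and Ltf than Ctsd+/+ cells. These 3 of the 6 tested genes were called higher and 0 lower, where 10.3% of 15178 tested genes were called higher and 14.6% lower. The other 3, Muc1, Muc4 and Slpi, were not called.

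Wfdc2 was at 27.9, 14.2 and 12.1 CPM in Ctsd+/+ cells, against 307, 341 and 250.2 CPM in Ctsd-/- cells. The groups were far apart, at a log2 FC of 4.05 ± 0.39, and the call held without any single sample (3.81 to 4.51) and within the shared LR number (4.49). Lcn2 was at 3.00, 3.51 and 0.0262 CPM against 59.0, 9.91 and 5.32 CPM. All Ctsd-/- samples were above all Ctsd+/+ samples, with Ctsd-/- replicate 1 far above and Ctsd+/+ replicate 3 far below the rest. The log2 FC of 3.52 ± 1.25 was no longer called without Ctsd+/+ replicate 1 (3.84), 2 (4.05) or 3 (2.90), without Ctsd-/- replicate 1 (1.82), in limma-voom (4.48) or within the shared LR number (2.14). Ltf had 0, 0 and 2 counts in Ctsd+/+ cells and 61, 13 and 8 counts in Ctsd-/- cells, or 1.48, 0.356 and 0.236 CPM. Against the CPM of 3 counts it was at least 7.56-fold higher in Ctsd-/- cells, or 3.23-fold without Ctsd-/- replicate 1, and its call was lost without Ctsd-/- replicate 1, in limma-voom and within the shared LR number. Without Ctsd+/+ replicate 3, which held the 2 counts, and without Ctsd-/- replicate 1, the fitted log2 FC went from 4.99 to 7.73 and 3.75, and such a value is not fixed by so few counts.

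Slpi was at 4.05, 1.22 and 0.131 CPM in Ctsd+/+ cells, against 9.19, 3.34 and 3.66 CPM in Ctsd-/- cells. The groups overlapped through Ctsd+/+ replicate 1, at 1.59 ± 0.78. Without that sample the value was 3.03 and called, as it was within the shared LR number (2.41). Muc4 had 0, 4 and 0 counts in Ctsd+/+ cells and 10, 2 and 3 in Ctsd-/- cells, and among the alternatives run was called (5.36) only without Ctsd+/+ replicate 2, which held all 4 counts. All 10 luminal markers were called higher and 6 of 6 tested fibroblast markers lower in this comparison, so the samples with more Wfdc2, Lcn2 and Ltf were also those with more luminal transcripts, whose part in the result was not tested.

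**Figure D4:**
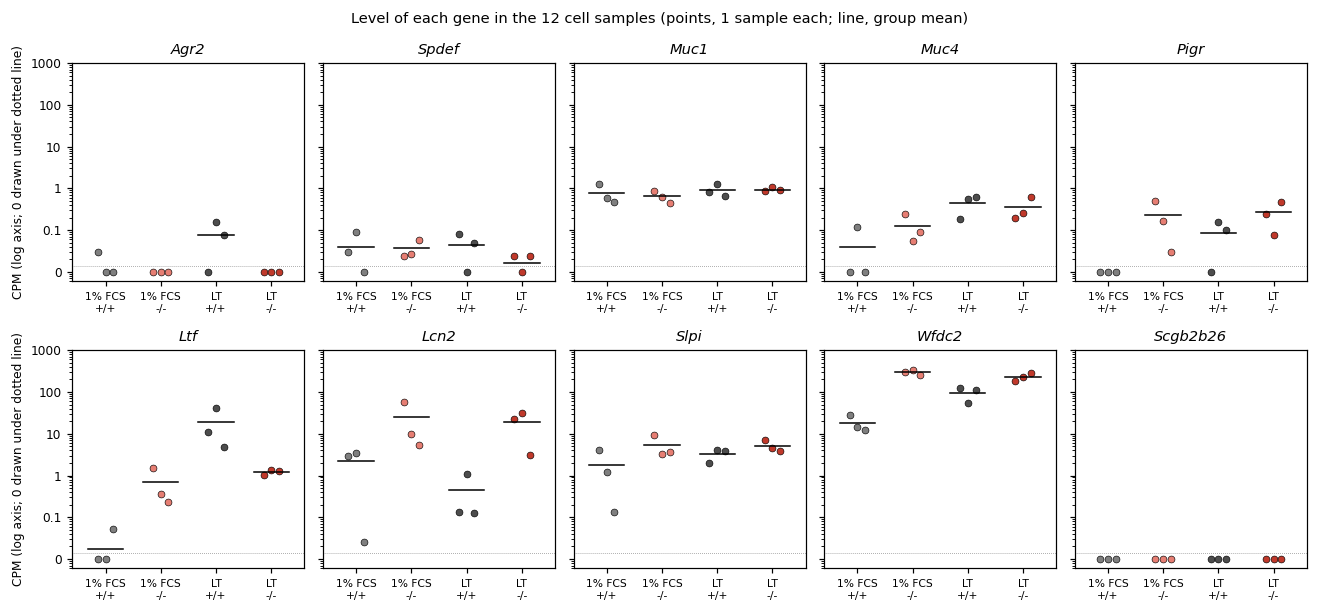
Each panel plots the level of 1 gene (CPM, log axis, with 0 drawn under the dotted line) in the 3 samples of each of the 4 cell groups, with a line at the mean. Wfdc2 lies between 12.1 and 341 CPM, Lcn2 is higher in Ctsd-/- cells after both times, and Ltf is highest in 1% FCS LT Ctsd+/+ cells.

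After 12 weeks, Lcn2 and Wfdc2 were still higher in Ctsd-/- cells, whereas Ltf was lower. Of the 6 tested genes 2 were called higher and 1 lower, where 9.24% of all tested genes were called higher and 10.1% lower. Luminal markers summed to 7834 to 8543 CPM in Ctsd+/+ cells, against 9603 to 12812 CPM in Ctsd-/- cells, with 1 of 10 called in each direction, and fibroblast markers summed to 3.24 to 8.46 and 11.5 to 104 CPM.

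Lcn2 was at 0.135, 1.07 and 0.127 CPM in 1% FCS LT Ctsd+/+ cells, from 5, 40 and 5 counts, and at 22.5, 32.0 and 3.10 CPM in Ctsd-/- cells. All Ctsd-/- samples were above all Ctsd+/+ samples. The log2 FC was 5.43 ± 1.44, and 7.16 without Ctsd+/+ replicate 2. In limma-voom it was 5.53 and not called. Ltf was at 10.8, 41.2 and 4.82 CPM in Ctsd+/+ cells, against 1.01, 1.39 and 1.28 CPM in Ctsd-/- cells. The knockout samples were tightly grouped and all below the controls, at -3.95 ± 0.81, and at -2.66 without Ctsd+/+ replicate 2, the highest. Wfdc2 was at 124, 53.4 and 113 CPM in Ctsd+/+ cells, against 180, 229 and 289 CPM in Ctsd-/- cells. The groups did not overlap, at 1.26 ± 0.35, and without Ctsd+/+ replicate 2 the value was 0.97 and below the threshold on size. Lcn2, Ltf and Wfdc2 stayed called within the shared LR number (5.49, -4.44 and 1.20) and without the 3 samples of 1% FCS Ctsd+/+ cells in the fit (5.43, -3.96 and 1.24). Slpi was at 1.94, 4.07 and 3.80 CPM in Ctsd+/+ cells, against 7.01, 4.56 and 3.82 CPM in Ctsd-/- cells, at 0.65 ± 0.76, and Muc1 and Muc4 differed by 0.02 ± 0.41 and -0.33 ± 0.72.

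The 2 culture times were then compared within each genotype. In Ctsd-/- cells none of the 6 tested genes was called, where 1.11% of all tested genes were called higher and 0.369% lower. Wfdc2 differed by -0.36 ± 0.34, Lcn2 by -0.37 ± 1.10, Slpi by -0.08 ± 0.75, Ltf by 0.79 ± 0.80, Muc1 by 0.52 ± 0.42 and Muc4 by 1.42 ± 0.81. The errors of Lcn2 and Slpi leave room for differences in either direction, and within the shared LR number Lcn2 was at 1.84 and Slpi at 0.73.

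In Ctsd+/+ cells, Ltf, Wfdc2 and Muc4 were called higher after 12 weeks and none lower, where 11.0% of tested genes were called higher and 12.3% lower. Ltf went from 0, 0 and 2 counts to 398, 1548 and 190 counts, at least 207-fold higher against the CPM of 3 counts, or 85.0-fold without 1% FCS LT replicate 2. Its fitted log2 FC was 12.5 without 1% FCS replicate 3 and 8.45 without 1% FCS LT replicate 2, against 9.72 with all samples. Wfdc2 was 5.37-fold higher in the mean, at a log2 FC of 2.43 ± 0.36 (2.20 to 2.88 without single samples). Muc4 went from 0, 4 and 0 counts to 7, 21 and 24 counts, at 3.44 ± 0.99, with 7.12 without 1% FCS replicate 2 and 2.83 without replicate 3, and was not called within the shared LR number (2.64). Lcn2 was at -2.28 ± 1.40 and Slpi at 0.87 ± 0.78, the latter called without 1% FCS replicate 1 (2.30) and within the shared LR number (2.19). Luminal markers were called higher in 9 of 10 and fibroblast markers lower in 5 of 6 over the same time.

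The corrected comparison subtracts the genotype difference at 10 days from that at 12 weeks. Ltf and Wfdc2 were called lower and none higher, where 11.0% of tested genes were called higher and 8.12% lower. Wfdc2 was at -2.79 ± 0.50 and was between -3.24 and -2.57 without single samples. Ltf was at -8.93 ± 1.55, with -11.7 without 1% FCS Ctsd+/+ replicate 3, -7.69 without 1% FCS Ctsd-/- replicate 1 and -7.65 without 1% FCS LT Ctsd+/+ replicate 2, and its size depends on the near absence of counts in 1% FCS Ctsd+/+ cells. Lcn2, by contrast, was at 1.91 ± 1.78 and Slpi at -0.95 ± 1.08, and neither was called. Over the same comparison 9 of 10 luminal markers were called lower.

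Over the 12 cell samples the gene whose log2 CPM lay nearest to Wfdc2 was Atp9a (r = 0.99, of 11517 candidates), to Ltf Sorl1 (0.97), to Lcn2 Ankfy1 (0.95), to Slpi Glb1l (0.96), to Muc4 Aifm2 (0.93) and to Muc1 Hcfc2 (0.86). The samples share 2 lines and 2 culture times, which enter each r, and each r was picked as the highest of all candidates.

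Of the 152 listed genes of the same processes, 74 were tested in cells. In 1% FCS 23 (31.1%) were higher and 21 (28.4%) lower in Ctsd-/- cells. Of all tested genes 10.3% were called higher and 14.6% lower. The median log2 FC was 0.07 against 0.00025 over all genes, in samples that also differ in luminal and fibroblast markers. The epithelial transcription factor Ehf rose from 4.11 ± 1.70 to 52.6 ± 2.45 CPM (SD, n = 3; 3.68 ± 0.30, edgeR, adjusted p = 2.12e-06). Creb3l1, a membrane-bound factor of collagen-secreting cells, fell from 46.7 ± 18.9 to 0.544 ± 0.376 CPM (adjusted p = 4.37e-06). Among antimicrobial genes 3 of 6 tested were called higher and 2 lower, and of other WAP genes 2 of 2 were called lower. Of the antimicrobial genes, Pglyrp1, a peptidoglycan-binding protein, was at least 250.2-fold higher at 22.9 ± 5.23 CPM (adjusted p = 2.32e-06). S100a7a (3.37 ± 0.69, adjusted p = 0.00175) and S100a8 (3.21 ± 0.92, adjusted p = 0.0126) rose with it. The core 2 branching enzyme gene Gcnt3 was at least 79.5-fold higher, at 7.28 ± 3.09 CPM (adjusted p = 2.64e-06), and Ccl28, a mucosal chemokine, at least 5.40-fold higher from 0 counts (adjusted p = 0.000878). Among cytokine genes 2 of 21 were higher and 7 lower, with Il6 at 0 counts in Ctsd-/- cells and at least 19.0-fold lower (adjusted p = 0.00115), or 9.38-fold without the highest Ctsd+/+ sample, and with the receptor Osmr (-3.67 ± 0.67, adjusted p = 0.000851) and Cebpd (-2.61 ± 0.69, adjusted p = 0.00865) lower too. Lrp2, the megalin receptor that takes up lactoferrin and lipocalin-2, fell from 27.3 ± 10.2 to 0.0849 ± 0.0750 CPM (adjusted p = 1.32e-06).

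In 1% FCS LT 9 of the 74 (12.2%) were higher and 17 (23.0%) lower, where 9.24% of all tested genes were called higher and 10.1% lower. The median was -0.29 against 0.01 over all genes. Pglyrp1 (5.66 ± 0.63, edgeR, adjusted p = 3.59e-05), Gcnt3 (3.44 ± 0.45, adjusted p = 0.000106), S100a8 (2.95 ± 0.79, adjusted p = 0.0113) and Csf3, a granulocyte growth factor (2.30 ± 0.51, adjusted p = 0.00381), were higher in Ctsd-/- cells, as they were in 1% FCS. Of 6 tested antimicrobial genes 3 were called higher and 2 lower, and of 2 other WAP genes 1 was called lower. Secretory transcription factors were called lower in 6 of 14 and higher in none, led by Foxa2 (-4.32 ± 0.81, adjusted p = 0.00219) and Grhl3 (-4.29 ± 0.50, adjusted p = 4.69e-05). Muc15, another membrane mucin, fell from 2.52 ± 1.12 to 0.224 ± 0.108 CPM (adjusted p = 0.0101), and Il1a from 7.23 ± 4.43 to 0.573 ± 0.319 CPM (adjusted p = 0.00444). Lrp1, a scavenging receptor that also binds lactoferrin, was higher at 1559 ± 154 against 146 ± 36.8 CPM (adjusted p = 6.48e-06), and Lgals3, which binds mucin glycans, lower at 153 ± 52.0 against 586 ± 55.9 CPM (adjusted p = 0.000495).

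**Figure D5:**
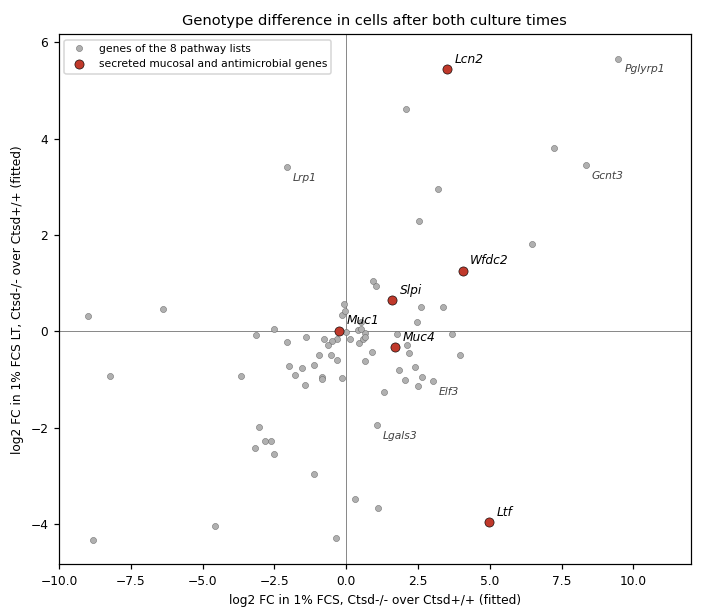
Fitted log2 FC of Ctsd-/- over Ctsd+/+ cells in 1% FCS (horizontal) against 1% FCS LT (vertical) for 74 genes of the 8 lists (grey) and the 6 tested secreted protein genes (red). Lcn2 and Wfdc2 lie in the upper right and Ltf in the lower right, at 4.99 and -3.95, where the horizontal value rests on a group with at most 2 counts a sample.

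Over culture time, Ctsd-/- cells had 0 of the 74 higher and 2 (2.70%) lower, where 1.11% of all tested genes were called higher and 0.369% lower. The median was -0.02 against -0.0014 over all genes. The 2 lower genes were Pglyrp1 (-1.94 ± 0.46, edgeR, adjusted p = 0.0499) and Egfr (-1.31 ± 0.20, adjusted p = 0.010). In Ctsd+/+ cells 25 (33.8%) were higher and 10 (13.5%) lower, where 11.0% of all tested genes were called higher and 12.3% lower. The median was 0.45, or 0.31 with genes at 3 counts or fewer set to their bound. There Elf3 (4.31 ± 0.33, adjusted p = 1.77e-06), Rab25, a small GTPase of apical recycling (3.17 ± 0.17, adjusted p = 1.57e-07), Il22ra1 (3.81 ± 0.42, adjusted p = 2.59e-05) and Muc15 (3.66 ± 0.94, adjusted p = 0.00747) rose, and Lrp1 (-4.67 ± 0.32, adjusted p = 7.90e-07) and Creb3l1 (-6.23 ± 0.56, adjusted p = 5.30e-06) fell. In the corrected comparison 8 (10.8%) were higher and 23 (31.1%) lower, among them 7 of 14 secretory transcription factors lower and 2 higher. Of all tested genes 11.0% were called higher and 8.12% lower. The median was -0.26 against -0.0035 over all genes.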

How the data were processed

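RNA from 8 tumors and 12 cell samples was sequenced, trimmed with Trimmomatic and aligned to GRCm38 with STAR by the authors, who deposited read counts per gene. Tool versions and the annotation release are not given in the sources used here. The deposited counts per gene hold columns without strand, used for tumors (52.8% to 53.7% of stranded counts on the opposite strand), and with strand, used for cells (97.1% to 97.3%). Rows for reads not assigned to a single gene (24.7% to 32.7% of reads in tumors, 14.8% to 18.9% in cells) were left out. They include ambiguous reads, which lie on more than 1 gene, at 7.11% to 15.6% in tumors and 1.11% to 1.25% in cells. Symbols came from an annotation that matched 45143 of 45706 identifiers.

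Tumors and cells were fitted separately in edgeR 4.0.16 (R 4.3.3) with filterByExpr, TMM scaling and the quasi-likelihood test, over all groups of a material, with Benjamini-Hochberg adjustment. The study used limma. The SE of a log2 FC was derived from the quasi-likelihood test, as its absolute value divided by the square root of the F value. No cell replicate is stated to be a separate mouse, so p-values in cells measure only the spread between replicates of 1 line per genotype. The fit was tested on simulated data. The 10 genes and all lists were chosen with earlier results of these data known. Other genes were named where they were called without overlap between groups, up to 3 by absolute log2 FC for each list and comparison, and the 3 nearest genes by Pearson r over samples were sought. Wfdc1, Wfdc12, Wfdc17, Wfdc18, Chil1, Jchain and Amy1 in tumors were named after their values were seen. Alternatives were limma-voom (limma 3.58.1), DESeq2 1.42.0 and its size factors, no filter or at least 10 counts in every sample, a replicate block, the LR number or marker levels as covariates, counts regardless of strand, and leaving out each sample. The subset of samples with the shared LR number, the fit without 1% FCS Ctsd+/+ cells and the fold bounds without the highest sample were added after seeing the data. Counting limits cover counting error only.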

Additional observations from a re-analysis of the deposited data

Results flagged for a closer look

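In tumors, each of the 10 genes was examined in both groups of 4 for a sample far from the others. Of 20 such groups, 2 held one, where chance gives about 1 in 20. Muc4 was at 13.6 CPM in MMTV-cre;Ctsd-/- replicate 3, with a gap to the next tumor of 0.960 of the range of the group. Wfdc2 was at 171 CPM in MMTV-cre;Ctsd-/- replicate 4, with a gap of 0.938 of the range.

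In cells, the genotype difference at 12 weeks minus that at 10 days was -8.93 for Ltf on the log2 scale, which is given without a test. For genes of the lists the difference was tested in edgeR as the corrected comparison. It was -4.06 for the epithelial transcription factor Elf3 (edgeR, adjusted p = 4.20e-05), -3.61 for the receptor tyrosine kinase Erbb3 (adjusted p = 3.89e-06) and -3.60 for Rab25 (adjusted p = 1.46e-06). It was -3.00 for Lgals3 (adjusted p = 0.000402), -2.56 for B3gnt3 (adjusted p = 2.17e-05) and 5.49 for Lrp1 (adjusted p = 4.17e-06). Each of these differences includes the 1% FCS Ctsd+/+ cells, whose luminal markers were low and fibroblast markers high. The part of that in the differences was not tested. Ltf also differed between genotypes at 12 weeks alone, by -3.95, as did Lrp1 and Lgals3.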

How the results depend on the processing

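Of 781 values of the 10 genes under an alternative, 46 were called differently and 32 turned their direction, 10 of them in tumors. Of the values that turned, 1 was called with all samples and no covariate, Spdef in tumors, at 0.049 with adipocyte markers as a covariate. The genes called in tumors were 2 instead of 4 with luminal markers and 6 with adipocyte markers as a covariate, and listed genes called there were 34 instead of 22 without a filter. With at least 10 counts in every sample, a gene with fewer in any sample was left untested, and of the 10 genes only Muc1 and Wfdc2 remained in cells. The genes called were then 1 instead of 3 in 1% FCS, 1 instead of 3 in 1% FCS LT, 1 instead of 3 over time in Ctsd+/+ cells and 1 instead of 2 in the corrected comparison. Listed genes called were 29 instead of 44, 15 instead of 26, and over time 23 instead of 35 in Ctsd+/+ and 1 instead of 2 in Ctsd-/- cells, where the LR number as a covariate gave 4. Without single samples, the genes called ranged from 2 to 5 in tumors, 1 to 4 in 1% FCS, 2 to 3 in 1% FCS LT, 0 to 0 over time in Ctsd-/- cells, 3 to 4 in Ctsd+/+ cells and 2 to 2 in the corrected comparison. Listed genes ranged from 14 to 27, 42 to 46, 25 to 33, 1 to 3, 35 to 41 and 26 to 34 in the same order. The cause of these shifts was not tested.

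Replicate numbers did not pair the tumors, where deviations of same-numbered samples correlated at -0.303 to -0.00755. In cells these correlations were -0.143 to 0.362, with no comparison above 0.1 in every pair. Between genotypes in 1% FCS, replicates 1 and 3 were at 0.362 and 0.299 and replicate 2 just under 0.1. All pairs were also positive between genotypes in 1% FCS LT and over time in Ctsd-/- cells. Over time in Ctsd+/+ cells all were negative. Same-numbered cell samples of both genotypes shared an LR number at each time. Whether cell replicates were paired is not settled by these values. With a replicate block, 12 instead of 22 listed genes were called in tumors, Spdef (-0.62) and Pigr (0.53) lost and Wfdc2 (-0.61) gained the call, and no call of the 10 genes changed in cells.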
